A study of Mus musculus with 9 samples.

Results

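The 31 genes described here encode enzymes of glycolysis and the citric acid cycle, with the aspartate aminotransferases and glutamate dehydrogenase that exchange carbon and nitrogen with the cycle. They were chosen by name and function and not by a measured value, though with earlier results of these data known. All 31 were found among the 56941 gene identifiers of the count table, and all 31 passed the filter on low counts. There were 13 glycolysis genes from glucose-6-phosphate isomerase to pyruvate kinase (Gpi1, Pfkl, Pfkm, Pfkp, Aldoa, Aldoc, Tpi1, Gapdh, Pgk1, Pgam1, Eno1, Eno2 and Pkm). There were 15 genes of the citric acid cycle and its cytosolic counterparts (Cs, Aco1, Idh1, Idh2, Idh3a, Idh3b, Idh3g, Ogdh, Dlst, Sucla2, Suclg1, Suclg2, Fh1, Mdh1 and Mdh2). The other 3 were Got1, Got2 and Glud1.

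RNA was sequenced from pancreatic islets, the clusters of hormone cells in the pancreas, of male C57BL/6J mice that were wild type and 15 weeks old when the diets began. The mice were fed for 9 months on a low fat control diet of 10% fat (LFD, 3 libraries), a high fat diet of 60% fat (HFD, 2 libraries) or a ketogenic diet of 89.9% fat (KD, 4 libraries), to ask how a ketogenic diet affects islet transcripts. The labels number the libraries as replicates and do not say that each is a separate mouse, so the p-values measure the spread between these samples. The diets are the only difference between groups that the labels give.

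In glycolysis, glucose is split in the cytosol into pyruvate, which yields ATP and NADH. Pyruvate and fatty acids both reach the mitochondrial matrix as acetyl-CoA, which the citric acid cycle oxidises while loading NADH and other carriers for respiration. Beta cells, the insulin-secreting cells of the islet, use this route as a glucose sensor, because the ATP made from glucose closes potassium channels and triggers secretion. They return the electrons of cytosolic NADH to mitochondria through shuttles, of which the malate-aspartate shuttle uses Mdh1, Mdh2, Got1 and Got2.

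Library totals ran from 15513502 to 26588390 counts, and the 31 genes together took 0.132% to 0.375% of a library. The lowest count of any member in any library was 43, for Aldoc. Values below are CPM, read counts relative to a library size scaled by TMM, which sets the bulk of genes level between libraries. Markers of acinar cells, the enzyme-secreting cells that surround islets, took 14.5% to 33.4% of counts on LFD, 10.9% to 17.9% on HFD and 19.1% to 58.1% on KD, and none of the 26 markers was at 0 in any library. The 15 beta cell markers measured took 5.85% to 9.72% on LFD, 11.9% to 13.1% on HFD and 1.74% to 13.1% on KD, so they were present in every library, with KD replicate 1 lowest. Markers of lymphocytes took 0.00854% to 0.155% on LFD, 0.00696% to 0.0112% on HFD and 0.000402% to 0.00142% on KD. Markers of macrophages took 0.00915% to 0.016% on LFD, 0.0111% to 0.018% on HFD and 0.00224% to 0.00837% on KD. Those of duct cells took 0.0498% to 0.0548%, 0.0354% to 0.0391% and 0.0219% to 0.0319%, and those of fibroblasts and stellate cells 0.0526% to 0.0774%, 0.071% to 0.074% and 0.0126% to 0.0416%. The KD libraries lay below all LFD libraries in their share of these 4 kinds of marker, while as a mean log2 CPM after TMM the macrophage, fibroblast and stellate markers of the diets overlapped. The part of these cells in the results was not tested, apart from a fit with a lymphocyte score, which separates poorly from diet. Which cells the enzyme transcripts came from was not measured, and in whole islets fewer cells of a type and less RNA per cell cannot be told apart.

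Per length of transcript, the most abundant glycolytic member was Aldoa, the main aldolase, at 152 ± 23.1 CPM per kilobase (SD, n = 9 libraries), followed by Pkm, pyruvate kinase, at 119 ± 30.6. Their mean ± SD ranges overlap. Gapdh and Eno1 followed at 53.3 ± 9.34 and 51.7 ± 6.09, and Aldoc was lowest at 1.93 ± 0.527. The length used is that of the longest annotated transcript, 1549 bases for Aldoa, 2432 for Pkm and 3289 for Gapdh. The order of members depends on that choice. Before division by length the means of these genes were 236, 289 and 175 CPM. In the citric acid cycle group the highest level per length was that of Mdh1, the cytosolic malate dehydrogenase of the shuttle, at 67.0 ± 15.8 CPM per kilobase, above Ogdh at 46.6 ± 8.48, Idh2 at 42.9 ± 11.1 and Mdh2 at 41.2 ± 6.83. The 3 subunit genes of the NAD-dependent isocitrate dehydrogenase stood lower, Idh3a at 13.0 ± 3.14, Idh3b at 18.3 ± 2.51 and Idh3g at 22.3 ± 2.46. Glud1, glutamate dehydrogenase, led its group at 31.5 ± 6.64 CPM per kilobase.

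**Figure D1:**
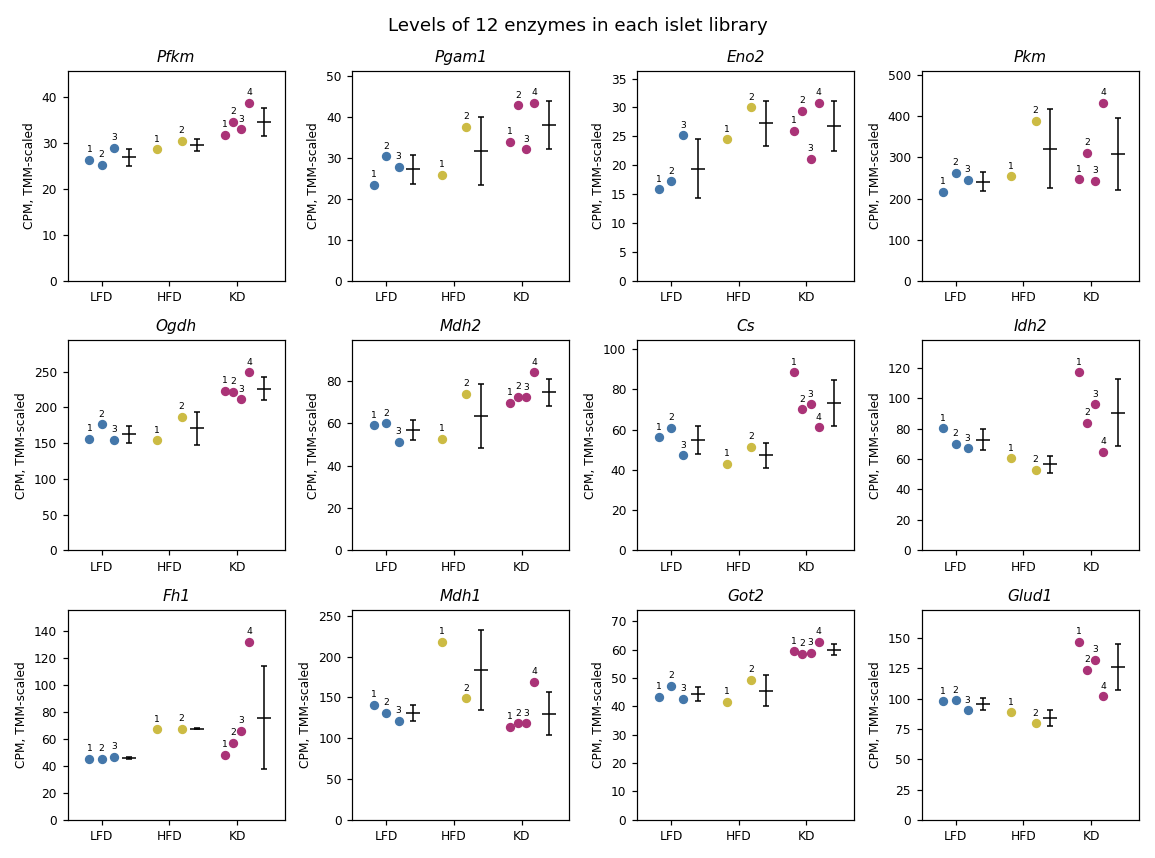
TMM-scaled CPM (vertical axes, from 0) of 12 members in each library, with LFD, HFD and KD along the horizontal axes, replicate numbers above the points and a bar for the mean ± SD of each diet. On this scaling the 4 KD points of Ogdh and Got2 stand above all LFD and HFD points, and for Fh1 KD replicate 4 stands alone at 132 CPM.

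The comparison of KD with LFD sets the ketogenic diet against the control diet. No member passed the edgeR quasi-likelihood test at a Benjamini-Hochberg adjusted p of 0.05, against 4.12% of all 18548 genes tested. At an unadjusted p below 0.05 there were 13 of 31 members, all with higher values on KD, against 22.7% of all genes, 10.8% in that direction and 11.9% in the other. Of the 13, 4 belong to glycolysis (Gpi1, Pfkm, Pgam1 and Eno2), 6 to the citric acid cycle (Cs, Idh3g, Ogdh, Suclg2, Fh1 and Mdh2) and 3 are Got1, Got2 and Glud1. Of the 11570 genes with at least 5 CPM in at least 3 libraries, 1771 had an unadjusted edgeR p below 0.05 and were higher on KD. The log2 fold change was above 0 for 26 of 31 members, 48.1% of all genes and 55.5% of those 11570. The members' median was 0.27, against -0.02 over all genes and 0.05 over those 11570. These directions depend on the TMM scaling: on library totals alone, 1 of 31 members (Fh1) lay above 0 and their median was -0.32, where the median of all genes was -0.59. The members' median was above that of all genes under both scalings. A change of scaling shifts all genes nearly alike, so this is not a separate check. The 95% interval of 30 of 31 fold changes lay within 2-fold in either direction, and Fh1 was the exception.

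**Figure D2:**
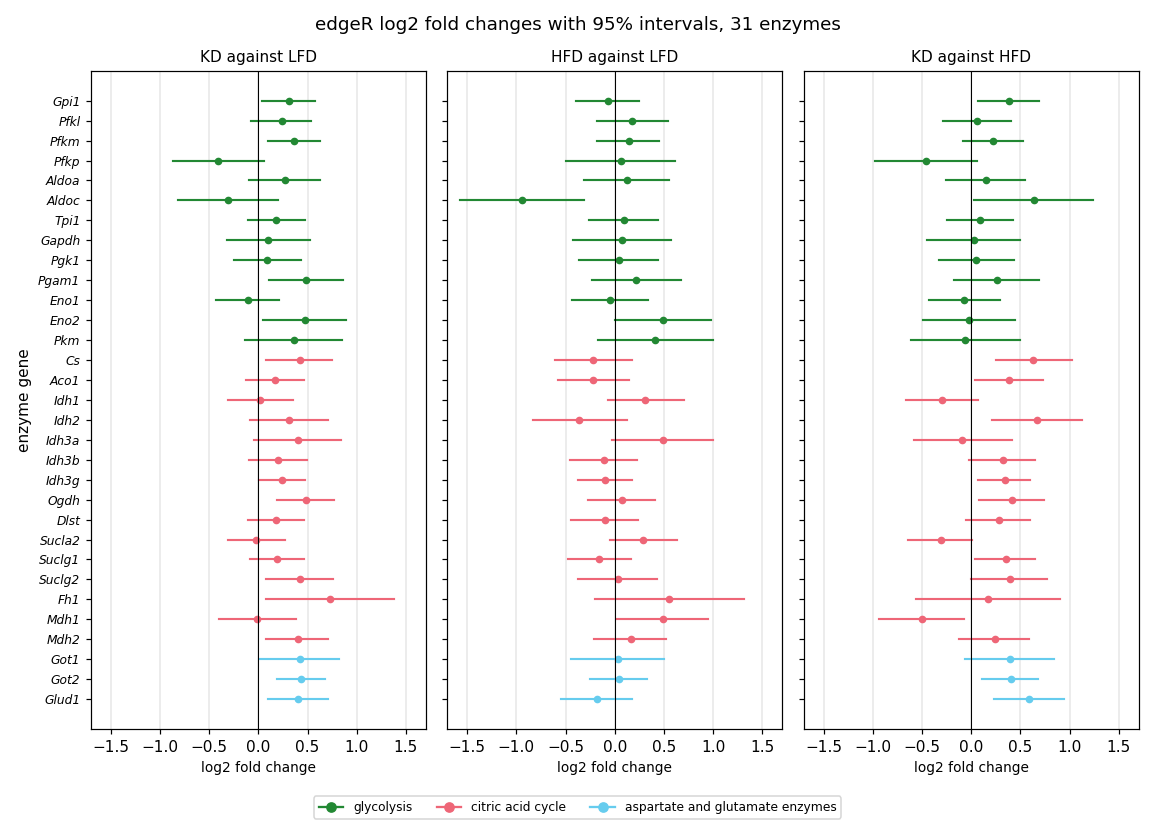
Log2 fold changes (horizontal axes) of the 31 enzymes (vertical axis) by edgeR, with 95% intervals, for KD against LFD, HFD against LFD and KD against HFD, coloured by role. The widest reach in the KD against LFD panel is that of Fh1, with an upper bound of 1.38, and on library totals the KD against LFD points shift down so that 1 of 31 stays above 0.

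Upper glycolysis held the member of the pathway with the lowest p in the KD against LFD comparison. Pfkm encodes the muscle form of phosphofructokinase, the committed step of glycolysis, and measured 26.4, 25.3 and 29.0 CPM on LFD, 28.7 and 30.5 on HFD, and 31.8, 34.7, 33.0 and 38.8 on KD. All 4 KD values lie above all 5 others. KD stood at a log2 fold change of 0.36 against LFD (SE 0.12, adjusted edgeR p 0.111, unadjusted p 0.0118). Pgam1, phosphoglycerate mutase, measured 23.5, 30.4 and 27.8 CPM on LFD, 25.9 and 37.6 on HFD, and 33.9, 42.9, 32.1 and 43.5 on KD. Its KD values lie above its LFD values, while HFD replicate 2 falls among the KD values. Against LFD this made a log2 fold change of 0.48 (SE 0.17, adjusted edgeR p 0.130).

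The other 11 glycolysis genes gave KD against LFD log2 fold changes from -0.41 (Pfkp) to 0.47 (Eno2). Gpi1 and Pfkl joined Pfkm and Pgam1 in having all KD values above all LFD values, which makes 4 of 13. The share was 9.69% of all genes and 13.7% of those with at least 5 CPM in at least 3 libraries. Aldoc had all KD values below all LFD values, against 10.1% of all genes. Aldoa, the most abundant member per length, measured 192, 240 and 205 CPM on LFD, 188 and 274 on HFD, and 236, 257, 237 and 292 on KD, so the diets overlapped. Its log2 fold change on KD was 0.27 (SE 0.16, adjusted edgeR p 0.359). The glyceraldehyde-3-phosphate dehydrogenase gene Gapdh and the phosphoglycerate kinase gene Pgk1 lay near 0, at 0.10 and 0.09 (SE 0.19 and 0.15), and both crossed to -0.05 and -0.04 without KD replicate 4. Eno1, the widespread enolase, was at -0.11 (SE 0.15), and Tpi1, triose phosphate isomerase, at 0.18 (SE 0.13). Pkm was at 0.36 (SE 0.23), and its highest values were 389 CPM in HFD replicate 2 and 433 in KD replicate 4, the libraries with the lowest acinar share of their diets. On LFD this did not hold: Pkm was highest in replicate 2, at 263 CPM, and at 245 in replicate 3, which had the lowest acinar share.

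Within the citric acid cycle the lowest p belonged to Ogdh, the E1 subunit of the 2-oxoglutarate dehydrogenase complex. It measured 156, 176 and 155 CPM on LFD, 154 and 187 on HFD, and 223, 222, 211 and 249 on KD. The KD libraries stand clear of all 5 others, and the HFD values span those of LFD. In log2 terms the difference was 0.48 against LFD (SE 0.13, adjusted edgeR p 0.0661, unadjusted p 0.00385) and 0.41 against HFD (SE 0.15, adjusted edgeR p 0.156). Dlst, which encodes the E2 subunit of the same complex, was at 0.18 (SE 0.13) against LFD, with overlapping values. Mdh2, the mitochondrial malate dehydrogenase, measured 58.9, 60.0 and 51.3 CPM on LFD, 52.6 and 73.9 on HFD, and 69.6, 72.5, 72.2 and 84.0 on KD. KD lay above LFD in every library and HFD replicate 2 fell inside the KD range. Its log2 fold change was 0.40 (SE 0.14, adjusted edgeR p 0.133).

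Promoters were searched for 3 motifs of transcription factors tied to metabolism, and short sequences are shown for low-p members with a motif before the annotated start. The sequences are RefSeq's, from 250 bases before to 50 after each annotated start on GRCm38.p6; 30 of 31 members matched, with 45 windows, and Idh3a did not. The E-box CACGTG, bound by MYC, USF and ChREBP-type factors, was found in 4 of 45 member windows (of Ogdh and Pfkm) and in 7.15% of 32851 promoters. Ogdh windows also hold a further E-box before the annotated start, at chr11:6292405-6292434, which is not shown. The cAMP response element TGACGTCA was found in 4 of 45 (of Ogdh and Mdh2) and in 1.79% of promoters. All Ogdh windows with this element hold the same site. Their bases after the annotated start were not found whole in any GENCODE M21 transcript of Ogdh. The NRF1 motif, searched in its perfect form, was found in 1 of 45 (of Pgam1) and in 0.971% of promoters; this match lies after the annotated start and is not shown. All 3 motifs read the same on both strands, and none contains another. The windows of 1 gene overlap, so windows are not independent, and a match is a description of these letters. Capitals mark the motif, all lines are on the plus strand, and the lines give in turn the Ogdh E-box at chr11:6292048-6292077, the Pfkm E-box at chr15:98092441-98092470, the Mdh2 element at chr5:135778511-135778540 and the Ogdh element at chr11:6291535-6291564.
Ogdh E-box: gtcgcggcgtgtCACGTGgaccggtcgctc
Pfkm E-box: aattaagtatgcCACGTGaagtaagtaatt
Mdh2 cAMP response element: ggagagaatcgTGACGTCAggcctcgctcg
Ogdh cAMP response element: acccaattctgTGACGTCAcgtcacgccca

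Of the remaining citric acid cycle genes, citrate synthase (Cs), the entry step for acetyl-CoA, measured 56.2, 60.9 and 47.3 CPM on LFD, 42.9 and 51.5 on HFD, and 88.5, 70.1, 72.6 and 61.2 on KD. The KD values lie above all others, the lowest of them just above the highest LFD value. The difference in log2 terms was 0.42 against LFD (SE 0.15, adjusted edgeR p 0.137) and 0.63 against HFD (SE 0.18, adjusted edgeR p 0.124). Fh1, fumarate hydratase, had the highest point estimate of the 31 in KD against LFD, at 0.73 (SE 0.29, adjusted edgeR p 0.178). It measured 45.2, 45.4 and 46.9 CPM on LFD, 67.1 and 67.7 on HFD, and 48.3, 57.0, 66 and 132 on KD. KD replicate 4 stands alone above all other libraries, and without that library the log2 fold change was 0.31.

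The isocitrate dehydrogenase genes differ in place and cofactor: Idh3a, Idh3b and Idh3g form the NAD-dependent mitochondrial enzyme of the cycle, Idh2 the NADP-dependent mitochondrial one and Idh1 its cytosolic counterpart. The 3 Idh3 genes gave KD against LFD log2 fold changes of 0.40, 0.20 and 0.24 (SE 0.20, 0.13 and 0.10). Idh2 measured 80.3, 70.2 and 67.1 CPM on LFD, 60.4 and 52.7 on HFD, and 117, 83.8, 95.9 and 64.7 on KD. Both HFD values lie below all the others, and KD replicate 4 lies below all LFD values. Its log2 fold change was 0.31 against LFD (SE 0.18) and 0.67 against HFD (SE 0.21, adjusted edgeR p 0.127). Idh1 was at 0.02 (SE 0.15) against LFD and -0.30 (SE 0.17) against HFD, with the KD values below both HFD values. The cytosolic aconitase Aco1, also an iron sensor, was at 0.17 (SE 0.14).

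Succinyl-CoA ligase pairs the shared subunit of Suclg1 with an ATP-forming subunit from Sucla2 or a GTP-forming one from Suclg2. On KD against LFD, Suclg2 was at 0.42 (SE 0.15, adjusted edgeR p 0.139), Suclg1 at 0.19 (SE 0.12) and Sucla2 at -0.02 (SE 0.13). Suclg2 measured 43.7, 36.2 and 37.9 CPM on LFD, 40.2 and 40.0 on HFD, and 64.4, 49.5, 55.2 and 41.1 on KD. KD replicate 4, the KD library with the lowest acinar share, is the one that falls among the LFD values. Mdh1 measured 141, 131 and 121 CPM on LFD, 218 and 149 on HFD, and 114, 118, 118 and 169 on KD, and its log2 fold change on KD was -0.01 (SE 0.18, adjusted edgeR p 0.973). Both HFD values were above the LFD range, and 3 of the 4 KD values were below it.

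Got2, the mitochondrial aspartate aminotransferase of the malate-aspartate shuttle, had the lowest p of all 31 members. It measured 43.5, 47.2 and 42.6 CPM on LFD, 41.7 and 49.5 on HFD, and 59.4, 58.6, 59.0 and 62.8 on KD. The 4 KD values lie close together and above all 5 others. KD stood at a log2 fold change of 0.43 against LFD (SE 0.11, adjusted edgeR p 0.0555, unadjusted p 0.00257) and 0.40 against HFD (SE 0.13, adjusted edgeR p 0.132). Glud1 measured 98.0, 98.6 and 90.3 CPM on LFD, 88.7 and 79.7 on HFD, and 147, 124, 132 and 102 on KD. Its KD values lie above and its HFD values below all LFD values. This gave a log2 fold change of 0.40 against LFD (SE 0.14, adjusted edgeR p 0.120) and 0.59 against HFD (SE 0.16, adjusted edgeR p 0.124). Got1, the cytosolic aminotransferase, was at 0.42 against LFD (SE 0.18), with KD replicate 2 below LFD replicate 2.

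The count of calls in KD against LFD depended on the test. DESeq2 called Ogdh (adjusted p 0.00734) and Got2 (adjusted p 0.0123), against 9.56% of all genes, and limma-voom with quality weights called 5 members (Ogdh, Got2, Eno2, Pfkm and Pgam1), against 10.1%. Over 21 alternatives, the adjusted p ran from 0.00734 to 0.873 for Ogdh and from 0.0123 to 0.764 for Got2. Without KD replicate 4, edgeR called Glud1 and Suclg2, against 7.40% of all genes. With a lymphocyte score in the fit, a covariate added after the data were seen, edgeR called 0 members and 0 of all genes. This score was 2.51, 3.75 and 0.984 on LFD and -1.66, -1.67, -2.28 and -1.68 on KD. It does not overlap between these diets, so the fit separates score from diet poorly, and the loss of calls cannot be assigned to either.

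In the comparison of HFD with LFD, 0 of 31 members and 0% of all genes passed the edgeR test after adjustment. At an unadjusted p below 0.05 there were 2 members, against 9.99% of all genes (3.55% higher and 6.44% lower), Mdh1 with a log2 fold change of 0.49 (SE 0.21, adjusted edgeR p 0.487) and Aldoc with -0.94 (SE 0.29, adjusted edgeR p 0.353). Aldoc, the brain-type aldolase, measured 6.44, 7.39 and 6.19 CPM on LFD, 4.15 and 2.81 on HFD, and 5.91, 5.66, 3.83 and 6.09 on KD. Both HFD and all KD values lie below the LFD range. Both HFD libraries lay above all LFD libraries for 2 members (Fh1 and Mdh1, against 13.4% of all genes) and below for 5 (Aldoc, Idh2, Idh3b, Idh3g and Glud1, against 14.1%). The log2 fold change was above 0 for 20 members and for 49.8% of all genes, and the members' median was 0.06 against 0.00. Both turned on 1 library: without HFD replicate 2, 10 members were above 0 with a median of -0.09, and without HFD replicate 1, 23 with a median of 0.17. The HFD replicates differed from each other across glycolysis, where the median over members of the log2 difference from the LFD mean was -0.08 in replicate 1 and 0.32 in replicate 2. DESeq2 called 0 members and 1.44% of all genes, and limma-voom 0 members and 0.0539%.

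In KD against HFD, again 0 of 31 members and 0% of all genes passed the edgeR test after adjustment, and 12 members had an unadjusted p below 0.05, against 22.7% of all genes. Of these, 11 were higher on KD (12.1% of all genes were), 7 of them in the citric acid cycle group (6 mitochondrial members and the cytosolic Aco1). Mdh1 was lower (10.6% of all genes were), with a log2 fold change of -0.50 (SE 0.20, adjusted edgeR p 0.174). KD libraries lay above both HFD libraries for 13 members, against 15.7% of all genes and 21.1% of those with at least 5 CPM in at least 3 libraries. They lay below for 2 (Idh1 and Sucla2), against 18.2% of all genes. The log2 fold change was above 0 for 23 members, 46.6% of all genes and 51.7% of those with at least 5 CPM in at least 3 libraries. Its median was 0.06 in glycolysis and 0.32 in the citric acid cycle, against -0.04 over all genes, and on library totals these were -0.70, -0.48 and -0.81. DESeq2 called 6 members (Glud1, Cs, Idh2, Got2, Ogdh and Idh3g), against 8.18% of all genes, and limma-voom called 0 members and 0%. Without KD replicate 4, edgeR called 4 (Glud1, Idh2, Cs and Mdh1), against 9.84%. The comparison shares its KD libraries with KD against LFD, so the 2 are not independent. In the joint test over the 3 diets, 0 members passed by edgeR, against 2.17% of all genes, with the lowest adjusted p at 0.0794 (Got2), and 12 members had an unadjusted p below 0.05, against 24.6%. DESeq2 called 5 members in that test, against 12.6% of all genes, and limma-voom 4, against 8.58%. Without KD replicate 4 edgeR called 4 there, against 10.0%.

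Ratios of 2 enzyme genes within a library do not depend on how libraries are scaled, and 8 such ratios were compared between KD and LFD by an exact two-sided permutation test over 35 splits, which cannot give a p below 0.0286. Over 8 ratios, an adjusted p below 0.05 needs at least 5 of them at that smallest p, so the design left little room for a call. None of the 8 passed after Benjamini-Hochberg adjustment, and for 3 the KD and LFD libraries did not overlap. Pfkp, the platelet form of phosphofructokinase, against Pfkl, the liver form, gave a difference of -0.61, close to those of Aldoc/Aldoa at -0.60 and Eno2/Eno1 at 0.60. Leaving out each library moved Pfkp/Pfkl from -0.86 (without LFD replicate 3) to -0.41 (without LFD replicate 2), Aldoc/Aldoa from -0.69 to -0.48 and Eno2/Eno1 from 0.46 to 0.86, so their order is not settled. Pfkp measured 24.5, 29.4 and 17.1 CPM on LFD, 18.7 and 30.5 on HFD, and 15.7, 19.5, 16.5 and 19.6 on KD, with a log2 fold change of -0.41 (SE 0.21, adjusted edgeR p 0.281). Pfkl measured 26.1, 25.4 and 27.3 CPM on LFD, 25.1 and 34.5 on HFD, and 29.6, 33.6, 28.1 and 32.4 on KD, with a log2 fold change of 0.24 (SE 0.14, adjusted edgeR p 0.332). The ratio of raw counts was 0.939, 1.16 and 0.624 on LFD, 0.745 and 0.883 on HFD, and 0.530, 0.580, 0.585 and 0.605 on KD. The KD ratios sit in a narrow band below all LFD and HFD ratios, and LFD replicate 3 lies nearest to them. A ratio can still vary with the mix of cells. The lymphocyte score ordered the libraries as Pfkp/Pfkl did within LFD and within HFD, but not within KD. With that score in the fit, which separates poorly from diet, the log2 fold change of Pfkp was 0.96. The part of the cell mix in Pfkp/Pfkl was not tested. The KD minus LFD difference in mean log2 ratio was -0.61 (SE 0.27, exact permutation p 0.0286, adjusted over the 8 ratios 0.114). Per transcript length, Pfkp made up 14.3% ± 3.89 of phosphofructokinase transcripts on LFD, 13.2% ± 2.53 on HFD and 9.17% ± 0.384 on KD (mean ± SD of 3, 2 and 4 libraries), while Pfkm made up 48.8% ± 2.92, 49.1% ± 5.25 and 53.7% ± 1.58. The size of these shares depends on the lengths used, those of the longest annotated transcripts. They were 8681 bases for Pfkp, 3730 for Pfkl and 2879 for Pfkm, and a shorter Pfkp transcript would give it a larger share.

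**Figure D3:**
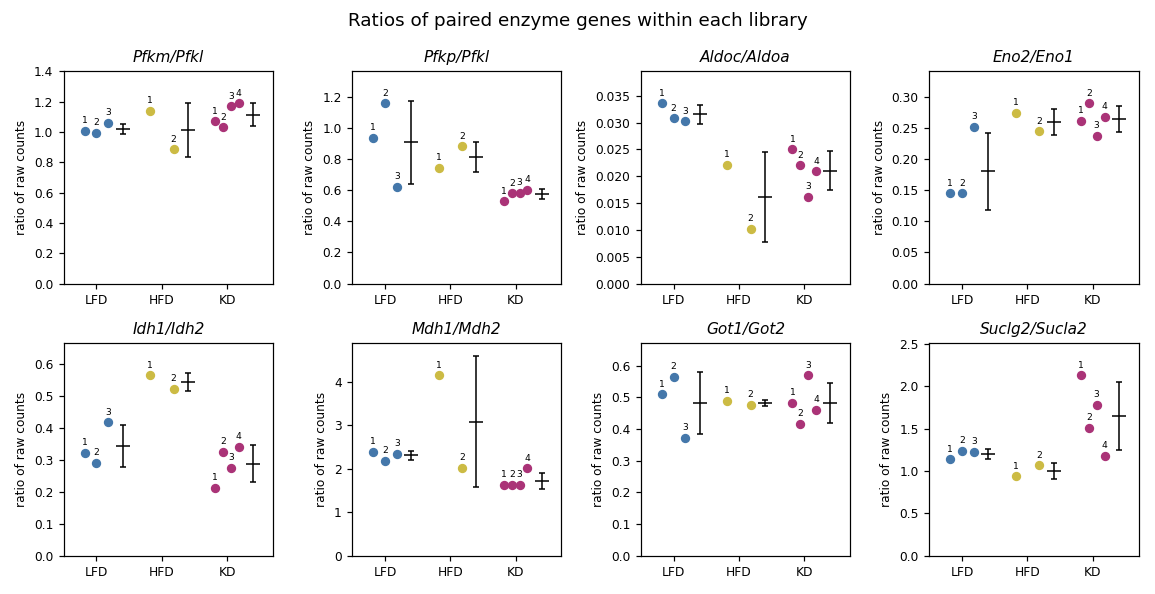
Ratio of raw counts (vertical axes, from 0) of 8 pairs of enzyme genes in each LFD, HFD and KD library, with replicate numbers and bars for the mean ± SD of each diet. Pfkp/Pfkl lies between 0.530 and 0.605 on KD, below all LFD and HFD libraries, and Mdh1/Mdh2 lies between 1.63 and 2.01 on KD, below the LFD libraries.

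The other ratios compare enzymes of different compartments, cofactors or tissue forms. Cytosolic against mitochondrial malate dehydrogenase (Mdh1/Mdh2) was 2.40, 2.19 and 2.35 on LFD, 4.15 and 2.02 on HFD, and 1.64, 1.63, 1.64 and 2.01 on KD. The KD ratios lie below all LFD ratios and the HFD libraries lie on either side of LFD. The difference in mean log2 ratio was -0.43 (SE 0.08, exact permutation p 0.0571, adjusted 0.114). Aldoc/Aldoa was lower on KD in every library, by -0.60 (SE 0.14, exact permutation p 0.0571, adjusted 0.114). Eno2, the neuron-type enolase also made in endocrine cells, against Eno1 was 0.145, 0.145 and 0.252 on LFD, 0.275 and 0.245 on HFD, and 0.262, 0.290, 0.238 and 0.268 on KD. LFD replicates 1 and 2 were the low libraries, LFD replicate 3 fell inside the KD range, and the difference was 0.60 (SE 0.27, exact permutation p 0.0571, adjusted 0.114). Suclg2/Sucla2 differed by 0.42 (SE 0.19, exact permutation p 0.114), Idh1/Idh2 by -0.26 (SE 0.22, exact permutation p 0.371), Pfkm/Pfkl by 0.13 (SE 0.06, exact permutation p 0.143) and Got1/Got2 by 0.01 (SE 0.20, exact permutation p 0.914), with adjusted values of 0.182, 0.424, 0.191 and 0.914. Idh1/Idh2 was 0.564 and 0.523 on HFD, above all LFD libraries, which ran from 0.290 to 0.417.

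The acinar score, the mean log2 CPM of the acinar markers, was 11.5, 10.9 and 10.0 on LFD, 10.3 and 9.32 on HFD, and 12.8, 11.8, 12.6 and 10.4 on KD. Entered in the edgeR fit beside diet, it gave each member a slope, the log2 change per unit of score among libraries of a diet. Idh2 had a positive slope of 0.27 (SE 0.06, adjusted edgeR p 0.0131), and 1 of 31 members was called in this direction, against 6.10% of all genes. Pkm at -0.32 (SE 0.07, adjusted edgeR p 0.00995) and Fh1 at -0.38 (SE 0.10, adjusted edgeR p 0.0328) had negative slopes, which makes 2 of 31, against 3.50%. Fh1 hardly varied within LFD (45.2 to 46.9 CPM) or HFD (67.1 and 67.7). It was at 132 CPM in KD replicate 4, which has the lowest score on KD, and at 48.3 to 66 in the other KD libraries. The slope of Fh1 and its fold change at equal score were not tested without KD replicate 4. Slopes were below 0 for 12 of 13 glycolysis genes, with Gpi1 the exception, and for 6 of 15 citric acid cycle genes, against 50.9% of all genes. At equal acinar score the KD against LFD fit called 7 members, all higher on KD (Fh1, Pkm, Ogdh, Eno2, Pgam1, Got2 and Pfkm), against 8.30% of all genes, and the joint test called 5, against 5.10%. A neuroendocrine score in its place, added after the data were seen, gave 8 members, against 14.9%, and 6 in the joint test, against 11.4%. At equal acinar score the log2 fold change of Idh2 was 0.00 (SE 0.12), that of Pkm 0.66 (SE 0.14, adjusted edgeR p 0.0147) and that of Fh1 1.03 (SE 0.20, adjusted edgeR p 0.0135). The score's part in the differences between diets was otherwise not tested, and 9 libraries leave few degrees of freedom for it.

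**Figure D4:**
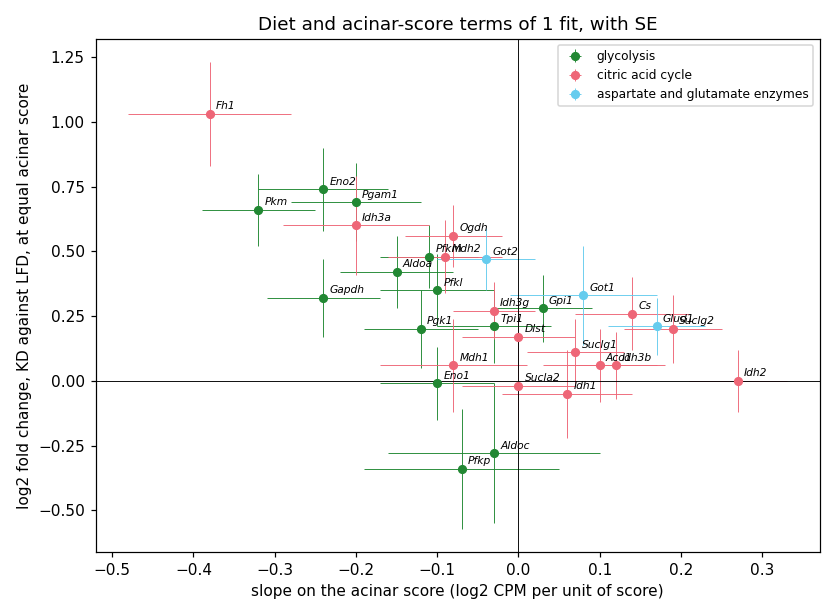
For each member, the slope on the acinar score (horizontal axis, log2 CPM per unit of score) and the KD against LFD log2 fold change at equal score (vertical axis) from the same edgeR fit, with SE bars. The 2 terms come from the same libraries and are not independent; Idh2 lies farthest right at 0.27 and Fh1 farthest left at -0.38.

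Genes around the 31 enzymes were taken from 3 further lists: other glycolysis genes (hexokinases, further isoenzymes, the enzymes of fructose-2,6-bisphosphate and lactate dehydrogenases), other citric acid cycle genes (mitochondrial aconitase, succinate dehydrogenase, pyruvate carboxylase, the pyruvate dehydrogenase complex and the pyruvate carrier), and shuttles and side reactions (carriers, malic enzymes, glutamine enzymes and the glycerol phosphate shuttle). In KD against LFD by edgeR, 0 rose and 1 fell of 20 glycolysis genes tested, 0 of 14 citric acid cycle genes passed, and 3 rose and 0 fell of 17 shuttle genes, where 0.981% of all genes rose and 3.14% fell. DESeq2 and limma-voom each called 2, 1 and 4 genes of the lists, against 9.56% and 10.1% of all genes, and 6, 3 and 6 had an unadjusted edgeR p below 0.05, against 22.7%. In HFD against LFD, edgeR, DESeq2 and limma-voom called none of these genes, and 3, 1 and 2 genes of the lists had an unadjusted edgeR p below 0.05, against 9.99% of all genes. In KD against HFD, edgeR and limma-voom called none, DESeq2 called 2, 0 and 8, against 8.18% of all genes, and 5, 3 and 9 had an unadjusted edgeR p below 0.05, against 22.7%. In the joint test edgeR called 0, 0 and 3 (Slc25a1, Gpd1 and Me3), against 2.17% of all genes. The median log2 fold changes on KD were -0.12, 0.19 and 0.37, against -0.02 over all genes, all on TMM scaling.

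The gene that fell was Pfkfb3, whose product makes the fructose-2,6-bisphosphate that activates phosphofructokinase. It measured 28.8, 29.3 and 20.1 CPM on LFD, 17 and 12.1 on HFD, and 17.9, 13.2, 10.8 and 9.45 on KD. All KD and HFD values lie below all LFD values. The log2 fold change was -1.02 on KD (SE 0.23, adjusted edgeR p 0.0330) and -0.84 on HFD (SE 0.28, adjusted edgeR p 0.397). The KD call was lost without LFD replicate 1 or 2 or KD replicate 2 or 3 (adjusted edgeR p up to 0.121). With the lymphocyte score in the fit, which separates poorly from diet, the log2 fold change was -0.21.

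Of the genes that rose, Slc25a1, the mitochondrial citrate carrier, measured 28.1, 26.8 and 25.0 CPM on LFD, 29.7 and 34.4 on HFD, and 41.5, 44.3, 41.2 and 42.2 on KD. HFD lies between the other diets and no 2 diets overlap. The log2 fold change on KD was 0.67 (SE 0.11, adjusted edgeR p 0.0133), and it was 0.10 and not called on library totals. Gpd1, the cytosolic enzyme of the glycerol phosphate shuttle, measured 15.9, 15.2 and 14.0 CPM on LFD, 12.4 and 14.2 on HFD, and 23.2, 21.4, 24.0 and 21.3 on KD, with a log2 fold change of 0.58 (SE 0.13, adjusted edgeR p 0.0358). Slc25a11, the 2-oxoglutarate and malate carrier of the malate-aspartate shuttle, measured 26.5, 26.3 and 24.0 CPM on LFD, 24.5 and 28.2 on HFD, and 35.1, 33.7, 35.9 and 36.8 on KD, with a log2 fold change of 0.47 (SE 0.12, adjusted edgeR p 0.0465). For both genes the KD libraries stand above all the others, and on library totals their fold changes were -0.01 and -0.10. Leaving out 1 library ended the call of Slc25a1 in 2 of 9 cases (LFD replicate 1 and KD replicate 2, adjusted p up to 0.0532), that of Gpd1 for each LFD library and KD replicates 1 to 3 (up to 0.112), and that of Slc25a11 for every one of the 9 libraries (0.0545 to 0.148).

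Me3, a mitochondrial NADP-dependent malic enzyme that makes pyruvate from malate, was called in the joint test over the 3 diets (adjusted edgeR p 0.0441) and by edgeR in no contrast of 2 diets. It measured 2.58, 2.87 and 3.71 CPM on LFD, 7.7 and 5.99 on HFD, and 2.41, 1.92, 1.16 and 2.73 on KD. Both HFD values lie above all the others, and KD overlaps LFD. The log2 fold changes were 1.16 for HFD against LFD (SE 0.35, adjusted edgeR p 0.341) and -1.72 for KD against HFD (SE 0.33, adjusted edgeR p 0.124). The joint calls of Slc25a1, Gpd1 and Me3 held in 2 of 9 cases when 1 library was left out, those of LFD replicate 3 and KD replicate 4, with adjusted p up to 0.0995, 0.112 and 0.191 in the others.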

How the data were processed

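The 31 genes, the lists, the ratios and the tests were chosen with earlier results of these data known. RNA came from a Trizol-chloroform extraction and poly(A) selection, and the libraries keep strand, per the labels' protocols. The authors deposited raw counts per Ensembl gene, whole numbers for 56941 identifiers. The submitters' processing notes name cutadapt 1.16, STAR 2.7.9a, featureCounts 1.6.3, DESeq2 1.40.2 and the build GRCm39 (mm39). The annotation and the treatment of reads that map to several places are not given in the sources used here. Reads of processed pseudogenes of Aldoa, Gapdh, Pgk1, Pgam1, Tpi1 and Got2 could therefore be split; the 17 identifiers named as such copies or as Eno1b reached at most 0.587 CPM. The symbol Aldoa is carried by 2 identifiers, and ENSMUSG00000030695 was used.

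The analysis used edgeR 4.0.16 (R 4.3.3): filterByExpr by diet (18548 genes kept), TMM scaling, robust glmQLFit with a mean per diet over all 9 libraries, and glmQLFTest, two-sided, with Benjamini-Hochberg adjustment over all genes tested and a threshold of 0.05. Standard errors are the size of the log2 fold change over the square root of F. Scores used log2 CPM with a prior count of 2. Levels per length used the longest transcript in GENCODE M21. Ratios were taken on raw counts and tested by exact permutation. The procedure was run on simulated counts with planted changes of 2-fold or more. Those are larger than the fold change of any member here, so the run does not show whether changes of the members' size would be called.

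All 31 members are named. Values per library are given for members past the threshold, the 2 with the lowest p for KD against LFD in glycolysis and in the citric acid cycle, the genes of the ratio with the largest difference and the member with the highest level per length in each group; those of Cs, Fh1, Idh2, Suclg2, Got2 and Aldoc were added after their values were seen. Neighbouring genes past the threshold in any contrast are named, up to 10 a list; Me3, past it in the joint test, was added after its values were seen. Alternatives were DESeq2 size factors, TMM without marker genes, no low-count filter, a filter of 5 CPM in 3 libraries, the DESeq2 1.42.0 test, limma-voom (limma 3.58.1) with quality weights, only the groups compared, an acinar covariate, the replicate number as a block and leaving out each library. Neuroendocrine and lymphocyte covariates and library totals without further scaling were added after the data were seen. The labels used here give no batches, so diet and batch cannot be told apart.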

Additional observations from a re-analysis of the deposited data

Results flagged for a closer look

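In groups of 4 KD libraries, 39 sets of values were examined for 1 library far from the other 3, and 3 were found, where chance gives about 1 in 20. For Aldoc the low library was KD replicate 3, at 1.98 log2 CPM with a prior count of 2 (3.83 CPM without it, gap 0.84 of the range). For Mdh1 the high library was KD replicate 4, at 7.4 log2 CPM (169 CPM; gap 0.907 of the range). For the Mdh1/Mdh2 ratio it was again KD replicate 4, at a log2 ratio of 1 (a ratio of 2.01; gap 0.961 of the range).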

How the results depend on the processing

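Of the counts and medians over the 31 enzymes, 180 alternative values kept the size of the reported ones, 15 counts of calls were larger and 16 medians moved by more than the SD between libraries; the cause was not tested. In KD against LFD the count of 0 called members became 2 with the DESeq2 test, 5 with limma-voom, 7 with the acinar covariate and 8 with the neuroendocrine covariate, and leaving out each library gave 0 to 2. In KD against HFD it became 6 with DESeq2 and 0 to 4 on leaving out each library, the 4 being without KD replicate 4. In the joint test it became 5 with DESeq2, 4 with limma-voom, 5 with the acinar covariate and 6 with the neuroendocrine covariate, and 0 to 4 on leaving out each library. The data gave no clear sign that replicate numbers pair the libraries, and weak correlations cannot exclude it. Deviations of LFD and KD libraries with the same number correlated at 0.222, -0.0164 and -0.00265. Same-number pairs of HFD correlated at 0.0688 and 0.0752 with LFD and at 0.038 and 0.0808 with KD. Not every library correlated best with its own number. With the replicate number as a block, 2 members were called in KD against LFD (10.8% of all genes), 4 in KD against HFD (12.5%) and 5 in the joint test (15.2%); KD replicate 4 has no partner (leverage 1), so that fit drops it in effect. The block also turned Gapdh to -0.05 and Pgk1 to -0.04.

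With the lymphocyte covariate the KD against LFD medians were 0.61 (glycolysis) and 0.35 (citric acid cycle), and the HFD against LFD medians 0.40 and 0.22. The KD against LFD fold changes of Pfkp 0.96, Aldoc 0.15, Eno1 0.45, Eno2 -0.08, Idh1 -0.71 and Mdh1 0.11 changed sign. This covariate does not overlap between KD and LFD, so the fit separates it from diet poorly. With the acinar covariate the KD against HFD medians were 0.45 and 0.18, and Idh1 (-0.05), Idh2 (0.00 to 2 decimals) and Mdh1 (0.06) changed sign in KD against LFD; with the neuroendocrine covariate the citric acid cycle median of KD against HFD was 0.26. The filter of 5 CPM put Idh1 at -0.04. Leaving out each library gave medians of 0.15 to 0.28 (glycolysis) and 0.18 to 0.29 (citric acid cycle) in KD against LFD, -0.09 to 0.32 and -0.11 to 0.04 in HFD against LFD, and -0.10 to 0.29 and 0.22 to 0.39 in KD against HFD, where HFD replicates 1 and 2 gave the ends. It changed the sign of Gapdh (-0.05 to 0.19), Pgk1 (-0.04 to 0.20), Idh1 (-0.11 to 0.12), Sucla2 (-0.10 to 0.10) and Mdh1 (-0.17 to 0.04).

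On library totals the medians in KD against LFD were -0.32 (glycolysis) and -0.34 (citric acid cycle), in HFD against LFD 0.25 (citric acid cycle) and in KD against HFD -0.70 and -0.48, and TMM factors ran from 0.542 to 1.5. The KD against LFD fold changes that changed sign there were, in glycolysis, Gpi1 -0.29, Pfkl -0.32, Pfkm -0.18, Aldoa -0.28, Tpi1 -0.38, Gapdh -0.41, Pgk1 -0.42, Pgam1 -0.05, Eno2 -0.08 and Pkm -0.12. In the citric acid cycle they were Cs -0.21, Aco1 -0.45, Idh1 -0.57, Idh2 -0.34, Idh3a -0.12, Idh3b -0.43, Idh3g -0.33, Ogdh -0.08, Dlst -0.38, Suclg1 -0.41, Suclg2 -0.22 and Mdh2 -0.15. The others were Got1 -0.17, Got2 -0.14, Glud1 -0.23, Slc25a11 -0.10 and Gpd1 -0.01. Over 21 alternatives Slc25a1 was called in 17, Pfkfb3 in 16, Gpd1 in 11 and Slc25a11 in 4. Depth limits Aldoc most, with 43 to 165 counts a library.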
